A study of Mus musculus with 6 samples.

Results

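Mitochondrial ribosomal proteins are the nuclear-encoded protein subunits of the mitoribosome, the ribosome that makes the few respiratory chain subunits encoded by mitochondrial DNA. Mouse symbols name them Mrpl in the large subunit, which forms the peptide bonds, and Mrps in the small subunit, which reads the mRNA. Their messages are translated in the cytosol and the proteins are imported and assembled on the mitochondrial rRNAs. In macrophages, mitochondrial translation feeds the respiratory chain, whose activity shifts when the cells become inflammatory.

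The members were all rows of the deposited table whose Ensembl identifier has a symbol starting with Mrpl or Mrps in GENCODE release M21, pseudogenes with -ps left out. There were 77 such genes of 16665 rows, 48 Mrpl and 29 Mrps genes, and all 77 had a mean of at least 1 FPKM (fragments per kilobase of gene, corrected for library depth) and entered the test with 10166 genes in all. Of 78 such genes in the annotation, Mrpl53 was not analysed here. The cells were RAW264.7, a mouse macrophage-like leukaemia line, and every library came from transfected cells. Of the 6 libraries, 3 came from cells given a miR-125b mimic and are labelled as overexpressing miR-125b, and 3 from cells given the negative control, NC, and are labelled as wild type for miR-125b. The series asks about miR-125b in atherosclerosis and pyroptosis. Not given in the sources used here are the arm and dose of the mimic and the time after transfection. The labels do not tie the samples of a group to separate cultures, so a p-value covers the spread of these samples alone, possibly a technical one.

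Recovered depth lay between 14.4 and 16.6 M fragments in the mimic libraries and between 14.7 and 16.8 M in the NC libraries. NC replicate 3 stood apart: 13266 genes were above 0 in it, against 15141 to 15470 in the other 5 libraries. All 8 listed macrophage markers were in the table, with summed levels of 6261 to 6506 FPKM in the mimic libraries and 7007 to 8461 FPKM in the NC libraries. Most of that sum was Lyz2, at 5720 to 5998 FPKM with the mimic and 6516 to 7838 FPKM with NC. Ptprc was at 26.7 to 29.3 FPKM with the mimic and 18.6 to 26.3 FPKM with NC. By fold change it was the 1 marker higher with the mimic, and 7 were lower. The groups overlapped in Cd68, Itgam, Spi1, Adgre1, Fcgr1 and Csf1r. Markers of fibroblasts, T cells, B cells and endothelium, each type apart, summed to at most 0.484 FPKM in any library. These sums rest on Col1a1 (fibroblasts), Cd4 (T cells), Cd79a (B cells), and Pecam1 and Kdr (endothelium). The pair of erythroid globins summed to 2.32 to 4.29 FPKM in the mimic libraries and 0 to 1.40 FPKM in the NC libraries. Hbb-bs did not overlap between the groups. Hba-a1 did, with means of 0.369 FPKM with the mimic and 0.400 FPKM with NC. Epithelial and adipocyte markers were not analysed here. The part of these marker differences in the results was not tested.

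In both subunits most genes read lower with the mimic, but no gene passed the test with all 6 libraries weighted equally. The summed level of the 48 Mrpl genes was 657, 673 and 587 FPKM in mimic replicates 1, 2 and 3, against 820, 839 and 611 FPKM in NC replicates 1, 2 and 3. The 29 Mrps genes summed to 309, 328 and 282 FPKM in the mimic libraries and 374, 389 and 321 FPKM in the NC libraries. NC replicates 1 and 2 were thus the highest of the 6 for both subunits, while NC replicate 3 lay within the range of the mimic libraries. The mean sums were 639 ± 45.8 FPKM with the mimic and 757 ± 126 FPKM with NC for Mrpl genes, a ratio of 0.845. For Mrps genes they were 306 ± 22.9 FPKM with the mimic and 361 ± 35.9 FPKM with NC (SD, n = 3 each), a ratio of 0.848. The ratio of the large to the small subunit sum was 2.13, 2.05 and 2.08 in the mimic libraries and 2.19, 2.15 and 1.90 in the NC libraries, with means of 2.09 ± 0.039 with the mimic and 2.08 ± 0.16 with NC. The difference in balance between the subunits was thus smaller than the spread of the libraries. As a share of all FPKM in a library, Mrpl genes made up 0.233%, 0.236% and 0.209% in the mimic libraries and 0.270%, 0.272% and 0.204% in the NC libraries. Mrps genes made up 0.109%, 0.115% and 0.1005% in the mimic libraries and 0.123%, 0.126% and 0.107% in the NC libraries. The ratios of mean shares, 0.910 for Mrpl and 0.913 for Mrps genes, were closer to 1 than those of the sums; all FPKM in a library also summed lower with the mimic (ratio 0.930). Levels per kilobase are relative within a library, and in bulk RNA fewer cells of a kind and less RNA per cell cannot be told apart.

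**Figure D1:**
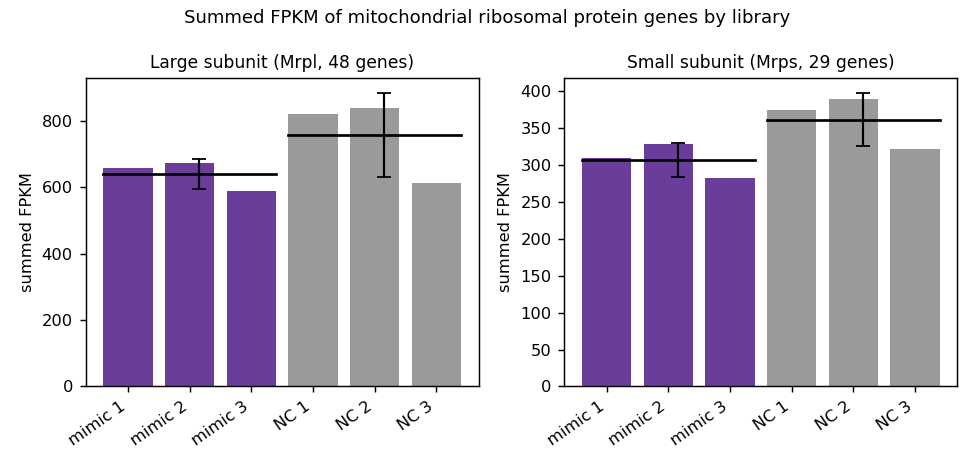
Summed FPKM of the 48 Mrpl genes (left) and the 29 Mrps genes (right) in each library, mimic bars in purple and NC bars in grey; the line and error bar give the mean and SD of 3 libraries. NC 1 and NC 2 are the highest bars in both panels, and NC 3, at 611 and 321 FPKM, lies within the range of the mimic bars.

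Per gene, limma on log2(FPKM + 1) passed 0 of 77 members at an adjusted p under 0.05 (background 0.0% of 10166 genes). The smallest adjusted p of a member was 0.332. The median log2 fold change, mimic minus NC, was −0.18 over Mrpl genes, of which 38 were below 0 and 10 above. Over Mrps genes it was −0.18 as well, with 22 below 0 and 7 above. The median of all tested genes was 0.041, and 43.7% of them were below 0. At an unadjusted p under 0.05, 12 members were lower with the mimic, 7 Mrpl and 5 Mrps (background 5.26%), and 0 were higher (background 7.96%). Voom on fragments recovered from the FPKM values gave 10 lower (4.745% of all genes) and 0 higher (8.997%) at that level and called 0 genes after adjustment. The 3 mimic values all lay below the 3 NC values in 14 members (background 7.49%) and above them in 0 (background 12.6%). The 14 were Mrpl2, Mrpl4, Mrpl12, Mrpl16, Mrpl17, Mrpl20, Mrpl43 and Mrpl57 in the large subunit and Mrps6, Mrps16, Mrps24, Mrps26, Mrps31 and Mrps33 in the small one. The 95% interval of a member's fold change had a median half-width of 0.44 on the log2 scale, from 0.24 to 1.28, so a shift of the size of the medians was not detectable gene by gene at this replication.

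**Figure D2:**
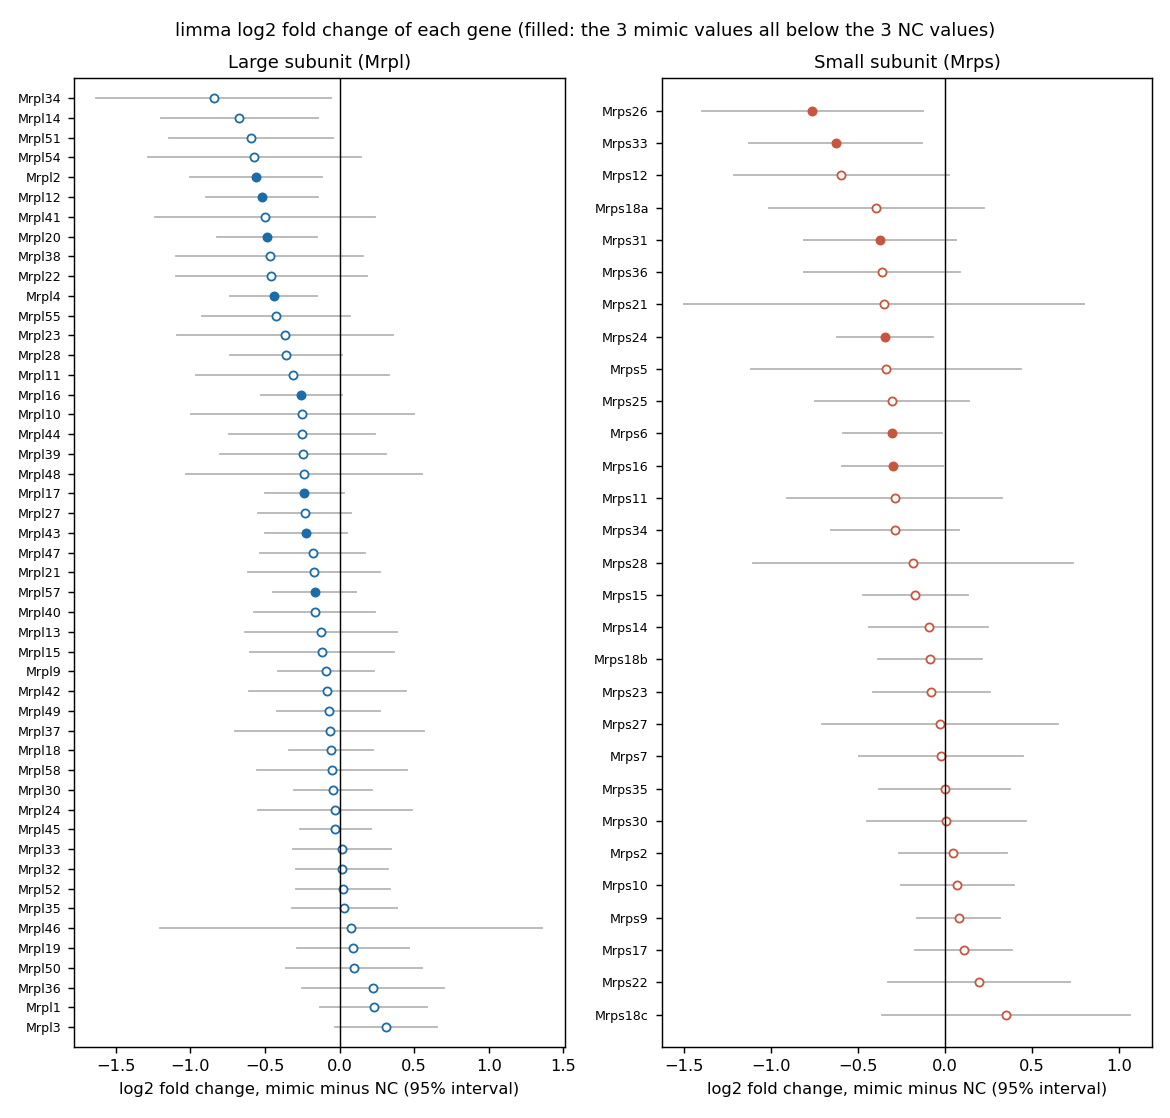
The limma log2 fold change (mimic minus NC, x axis) of each Mrpl gene (left) and Mrps gene (right) with its 95% interval, ordered by value; filled points are the 14 genes whose 3 mimic values all lie below the 3 NC values. Most points lie left of 0, from −0.84 for Mrpl34 to 0.35 for Mrps18c.

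Of the 6 large subunit genes with the smallest p, 4 had groups that did not overlap (lower with the mimic, background 7.49%). Picking genes by small p favours such groups, so this count is no result about the members. Of the 6, 5 have a bacterial homologue, as do 30 of the 48 Mrpl genes. Mrpl4 (ENSMUSG00000003299, GRCm38 chr9:21002738-21008839, plus strand), whose bacterial homologue lines the peptide exit tunnel, read 28.2, 28.1 and 32.1 FPKM in the mimic libraries and 41.5, 44.5 and 35.6 FPKM in the NC libraries. Every mimic value lay below every NC value, and the log2 fold change was −0.44 (SE 0.13). Mrpl20, which binds rRNA early in assembly in bacteria, read 6.03, 5.76 and 6.56 FPKM with the mimic and 8.52, 10.8 and 7.80 FPKM with NC (−0.49, SE 0.14). Its groups did not overlap either. Mrpl12, the stalk protein that recruits translation factors and in human cells also binds the mitochondrial RNA polymerase, read 30.6, 28.8 and 24.9 FPKM with the mimic and 46.0, 44.6 and 32.6 FPKM with NC (−0.52, SE 0.16). In Mrpl12 the gap between the groups was narrow, and NC replicate 3 was closest to the mimic libraries.

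Mrpl14, a protein of the subunit interface, read 13.7, 18.5 and 14.3 FPKM in the mimic libraries and 27.4, 32.2 and 17.8 FPKM in the NC libraries (log2 fold change −0.67, SE 0.22). Here mimic replicate 2 lay above NC replicate 3, so the groups overlapped. Mrpl2, which in bacteria sits close to the peptidyl transferase centre, read 12.4, 14.1 and 10.4 FPKM with the mimic and 19.9, 22.2 and 14.2 FPKM with NC (−0.56, SE 0.19). Mrpl2 did not overlap between the groups, but mimic replicate 2 and NC replicate 3 were nearly level. Mrpl51 (ENSMUSG00000030335, chr6:125191801-125196269, plus strand), a subunit with no bacterial homologue, read 4.09, 3.52 and 2.48 FPKM with the mimic and 6.77, 6.41 and 3.75 FPKM with NC (−0.59, SE 0.23). Mimic replicate 1 exceeded NC replicate 3 in this gene.

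In the small subunit, Mrps33 (ENSMUSG00000029918, chr6:39801804-39810988, minus strand), a mitochondria-specific subunit, had the smallest p. It read 8.68, 9.54 and 7.10 FPKM in the mimic libraries and 16.04, 15.9 and 9.63 FPKM in the NC libraries (log2 fold change −0.63, SE 0.21). The groups did not overlap, with NC replicate 3 just above mimic replicate 2. Mrps26 (ENSMUSG00000037740, chr2:130563742-130568695, plus strand), also mitochondria-specific, read 5.65, 5.03 and 5.49 FPKM with the mimic and 12.6, 12.8 and 5.80 FPKM with NC. Its log2 fold change of −0.76 (SE 0.27) was the lowest in the small subunit, and NC replicate 3 alone sat beside the mimic values. Mrps12, the decoding-centre protein, read 2.20, 1.74 and 1.38 FPKM with the mimic and 4.93, 3.09 and 1.96 FPKM with NC (−0.60, SE 0.26), with overlap at NC replicate 3. It is one of the least abundant members.

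The other genes of this group showed another pattern, in which NC replicate 3 was not the low one. Mrps24, counterpart of a bacterial protein at the mRNA entry channel, read 32.9, 34.8 and 33.8 FPKM in the mimic libraries and 38.5, 43.7 and 48.2 FPKM in the NC libraries (log2 fold change −0.35, SE 0.12). Mrps6, counterpart of a bacterial platform protein, read 35.4, 35.9 and 38.3 FPKM with the mimic and 43.4, 41.3 and 51.6 FPKM with NC (−0.30, SE 0.12). In both genes NC replicate 3 was the highest of the 6 libraries. Mrps16, whose bacterial counterpart acts in small subunit assembly, read 4.53, 5.01 and 4.48 FPKM with the mimic and 5.51, 6.62 and 5.87 FPKM with NC (−0.30, SE 0.12). The adjusted p of these 12 genes lay between 0.332 and 0.386, so none passed. Exons of Mrpl12, Mrpl14, Mrpl51, Mrps6, Mrps24 and Mrps26 overlap those of another gene, by 8 bases (Mrps26) to 305 bases (Mrps6), and reads there may be shared. Without every member that has such an overlap, the medians were −0.25 over 27 Mrpl genes and −0.18 over 18 Mrps genes.

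**Figure D3:**
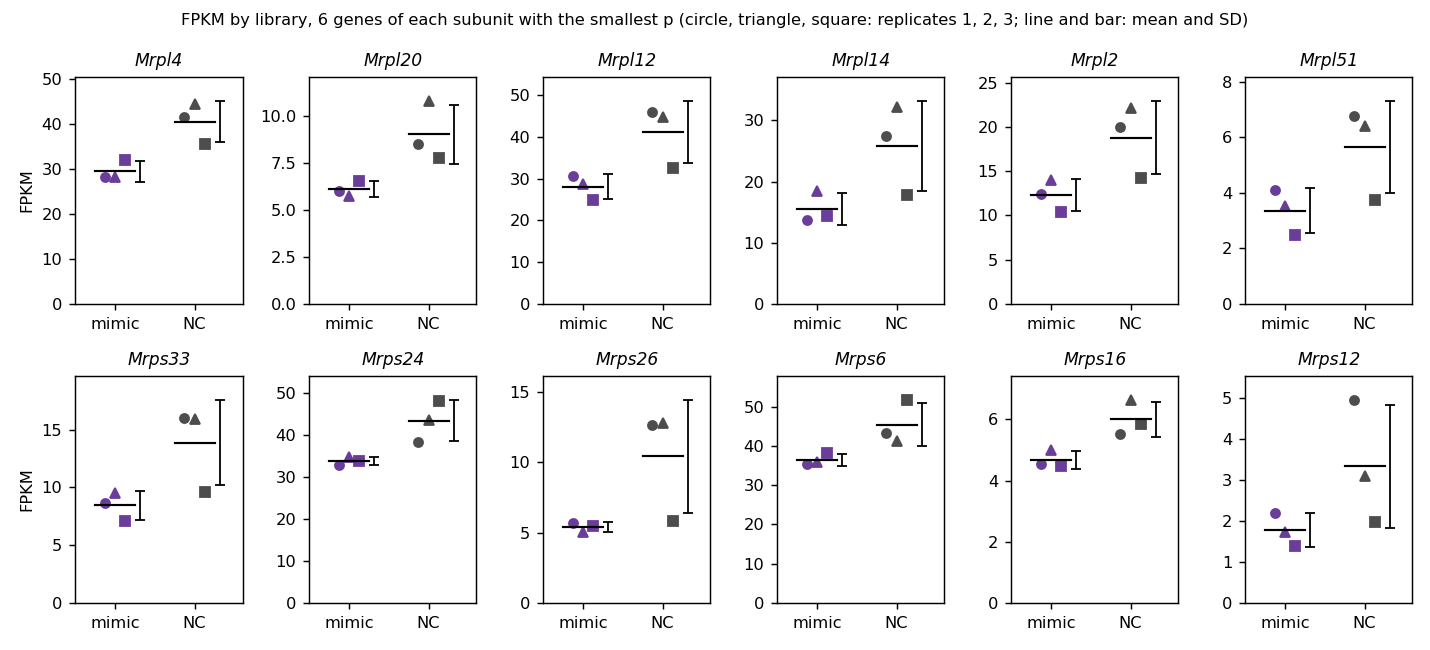
FPKM by library (y axis from 0) for the 6 Mrpl genes (top) and the 6 Mrps genes (bottom) with the smallest p, mimic in purple left of NC in grey; circles, triangles and squares are replicates 1, 2 and 3, with the mean and SD beside them. The square of NC sits lowest of the NC points in 9 of the panels, and highest in Mrps24 and Mrps6.

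The genes with the highest fold changes did not pass either. Mrpl3 (ENSMUSG00000032563, chr9:105053239-105079888, plus strand), a core protein near the peptidyl transferase centre, read 8.39, 8.97 and 6.85 FPKM in the mimic libraries and 6.20, 7.15 and 5.56 FPKM in the NC libraries (log2 fold change 0.31, SE 0.15). It was higher with the mimic in each same-numbered pair, while the groups overlapped. Mrpl1, of the stalk beside the tRNA exit site, read 8.93, 9.45 and 7.91 FPKM with the mimic and 6.12, 7.16 and 8.91 FPKM with NC (0.23, SE 0.15). Mrps18c, the closest of the Mrps18 trio to its bacterial homologue, read 10.2, 13.3 and 6.58 FPKM with the mimic and 8.05, 10.2 and 4.80 FPKM with NC (0.35, SE 0.30). Mrps22, a mitochondria-specific subunit, read 4.86, 4.74 and 3.13 FPKM with the mimic and 4.23, 4.20 and 2.42 FPKM with NC (0.19, SE 0.22). In Mrps18c and Mrps22 replicate 3 was the lowest library of both groups, and its distance from the other libraries was larger than the difference between the group means. Mrps22 stood at −0.010 without NC replicate 3.

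The 2 most abundant members of each subunit, per length, were taken as examples of high levels. Mrpl45, the large subunit protein that anchors the ribosome at the inner membrane in mammals, read 77.8, 75.5 and 77.7 FPKM in the mimic libraries and 83.0, 79.6 and 73.3 FPKM in the NC libraries. Its log2 fold change was −0.028, with a 95% interval of −0.27 to 0.21. Mrpl18, whose bacterial homologue binds a small rRNA, read 37.9, 42.1 and 32.9 FPKM with the mimic and 39.4, 39.4 and 38.3 FPKM with NC (−0.058, 95% interval −0.34 to 0.22). Mrps6 and Mrps24, described above, were the most abundant of the small subunit, and mean levels of the 77 members ran from 2.14 FPKM (Mrps25) to 77.8 FPKM (Mrpl45).

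Members with roles or places outside the common core varied. Mrpl41, a mitochondria-specific subunit, read 7.25, 9.43 and 5.56 FPKM in the mimic libraries and 15.02, 12.8 and 6.20 FPKM in the NC libraries (log2 fold change −0.50, SE 0.31). Mrpl44, which has the fold of an RNase III enzyme, read 11.5, 8.57 and 10.8 FPKM with the mimic and 14.5, 14.4 and 8.81 FPKM with NC (−0.25, SE 0.21). In both genes NC replicate 3 lay inside the range of the mimic libraries. Mrpl58, a peptidyl-tRNA hydrolase that rescues stalled ribosomes, read 4.49, 4.52 and 3.88 FPKM with the mimic and 4.83, 6.07 and 3.00 FPKM with NC (−0.052, SE 0.21). Mrps34, required for a stable small subunit in mice, read 5.06, 5.31 and 5.54 FPKM with the mimic and 8.05, 6.97 and 5.30 FPKM with NC (−0.29, SE 0.16). Exons of Mrps34 share 1309 bases with Mapk8ip3 on the other strand, so their reads cannot be told apart where counting used no strand.

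Some Mrps symbols do not name small subunit proteins. Structures place the products of Mrps18a and Mrps30 in the large subunit, and the product of Mrps36 is now known as a part of the 2-oxoglutarate dehydrogenase complex. Mrps18a read 4.15, 4.75 and 4.51 FPKM in the mimic libraries and 8.22, 7.74 and 3.61 FPKM in the NC libraries (log2 fold change −0.40, SE 0.26). Mrps30 read 12.1, 12.9 and 16.9 FPKM with the mimic and 11.97, 12.2 and 18.03 FPKM with NC (0.0060, SE 0.19). These groups overlapped, and in Mrps30 replicate 3 was the highest library of both groups. Mrps36, which has 3 pseudogenes in the annotation and is uncertain for that reason, read 8.20, 9.60 and 6.73 FPKM with the mimic and 8.91, 9.90 and 13.9 FPKM with NC (−0.36, SE 0.19). Mrps18b, a paralogue of Mrps18c, read 5.80, 6.08 and 6.94 FPKM with the mimic and 6.11, 6.63 and 7.45 FPKM with NC (−0.088, SE 0.13). With Mrps18a and Mrps30 moved to the large subunit its median stayed at −0.18 over 50 genes.

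By place in the ribosome, the 4 tested stalk proteins on the list (Mrpl10, Mrpl11, Mrpl12 and Mrpl54) were all below 0. So were 38 of the 48 Mrpl genes and 43.7% of all tested genes. The stalk proteins had a median log2 fold change of −0.42. That median was −0.66 without NC replicate 3 and −0.27 with a trend on transcript length and GC content removed. Mrpl54 read 5.79, 6.28 and 5.44 FPKM in the mimic libraries and 11.9, 12.6 and 4.94 FPKM in the NC libraries. Mrpl11, at the base of the stalk, read 5.06, 5.32 and 4.27 FPKM with the mimic and 8.003, 8.42 and 3.58 FPKM with NC. In both, NC replicate 3 was the lowest of the 6 libraries and the other NC libraries were the highest. The 5 listed proteins around the exit tunnel (Mrpl22, Mrpl23, Mrpl24, Mrpl44 and Mrpl45) were also all below 0. Mrpl4, whose bacterial homologue lines that tunnel, was not on this list. The median of the 5 was −0.25, from −0.46 for Mrpl22 to −0.028 for Mrpl45. That median was −0.47 without NC replicate 3 and −0.095 with the trend removed. Mrpl23 shares sequence with a pseudogene and is uncertain, as is Mrpl48. Over the 30 large subunit genes with a bacterial homologue the median was −0.21 (23 below 0) and over the 18 without one −0.17 (15 below 0). Of the Mrps genes, the 16 listed with a homologue had a median of −0.18 (11 below 0) and the 13 not so listed −0.29 (11 below 0). Those 13 include Mrps18a and Mrps18b, of the same trio as Mrps18c, and Mrps30 and Mrps36, described above. With the trend removed these 4 medians were −0.13, −0.061, −0.065 and −0.12, and without NC replicate 3 they were −0.29, −0.35, −0.26 and −0.37, each in the same order. With equal weights 0 genes of each subgroup reached an adjusted p under 0.05.

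Library by library, replicate 3 was the lowest of its group in both groups in 46 of 77 members, 32 Mrpl and 14 Mrps genes, against 34.1% of all tested genes. NC replicate 3 lay below both other NC libraries in 63 members (44 Mrpl, 19 Mrps), against 56.7% of all genes. It was nearer to the mimic mean than to the mean of NC replicates 1 and 2 in 59 members, against 65.8% of all genes. The widest spreads, in genes picked after their values were seen, were those of Mrpl46 and Mrps21. Mrpl46 read 5.63, 4.77 and 2.11 FPKM in the mimic libraries and 6.39, 6.18 and 0.913 FPKM in the NC libraries. Mrps21 read 19.2, 21.8 and 11.96 FPKM with the mimic and 31.2, 37.1 and 9.11 FPKM with NC. Both had replicate 3 lowest in each group, and their intervals ran from −1.21 to 1.36 for Mrpl46 and from −1.50 to 0.80 for Mrps21. Mrpl34, also picked afterwards for the lowest fold change of all members (−0.84, SE 0.34), read 24.98, 21.04 and 18.8 FPKM with the mimic and 53.3, 52.8 and 21.5 FPKM with NC.

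**Figure D4:**
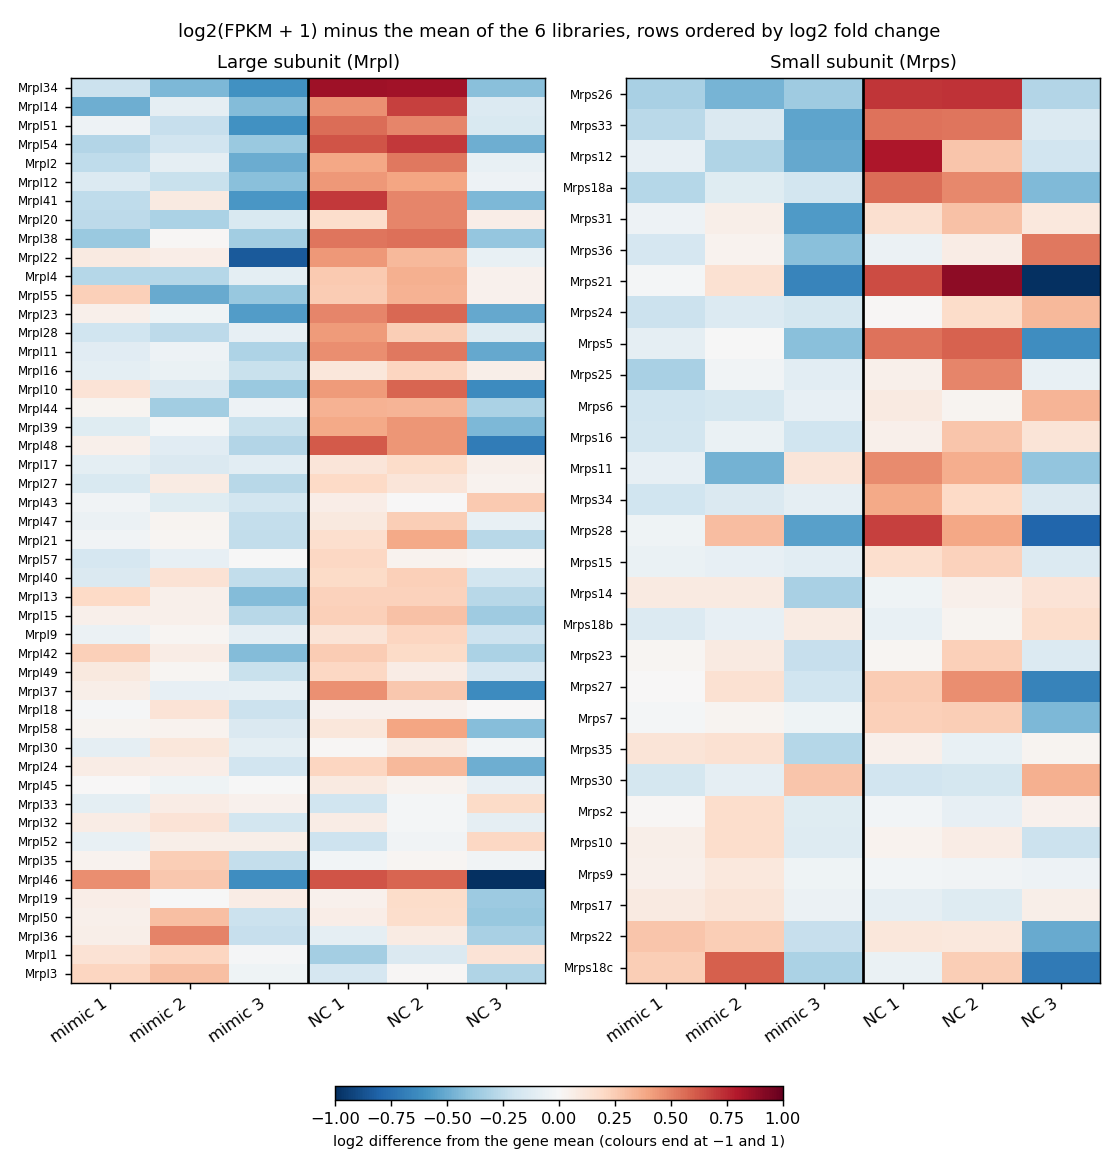
Colour shows log2(FPKM + 1) of each Mrpl gene (left) and Mrps gene (right) minus that gene's mean over the 6 libraries, mimic columns left of the black line and NC columns right of it; colours end at −1 and 1. Red fills the columns of NC 1 and NC 2 in most rows, and NC 3 is below both of them in 63 rows.

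Same-numbered libraries gave the same picture in pairs 1 and 2 and less of it in pair 3. The median difference over Mrpl genes, mimic minus NC on the log2 scale, was −0.21, −0.27 and −0.063 in pairs 1, 2 and 3. Over Mrps genes it was −0.23, −0.22 and −0.068, against 0.024, 0.019 and 0.056 over all tested genes. All 6 subunit medians were negative and all 3 of the whole table positive. Members below 0 numbered 61, 58 and 44 of 77 in the 3 pairs. In all 3 pairs 32 members were lower with the mimic, 21 Mrpl and 11 Mrps (background 16.2%), and 6 were higher: Mrpl3, Mrpl36, Mrps9, Mrps10, Mrps18c and Mrps22 (background 24.1%).

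Calls appeared when NC replicate 3 was left out, and the medians were then −0.30 for Mrpl genes, −0.27 for Mrps genes and −0.0064 for all genes. In that fit 26 members passed, all lower with the mimic, 18 Mrpl and 8 Mrps (background 12.2%), and 0 passed as higher (background 11.6%). Mrps26 fell by 1.10 on the log2 scale (adjusted p = 0.0042, limma), Mrpl14 by 0.91 (adjusted p = 0.0092) and Mrps18a by 0.72 (adjusted p = 0.0072). Mrpl4 fell by 0.53 (adjusted p = 0.011), while Mrps24 (−0.27, adjusted p = 0.058) and Mrps6 (−0.21, adjusted p = 0.085) did not pass. That library itself was nearer to the mimic mean in most members, so these calls rest on its absence. Without replicate 3 of both groups, a choice made after the data were seen, 35 members passed as lower (background 19.9%) and 3 as higher, Mrpl1, Mrpl3 and Mrps17 (background 23.1%). With libraries weighted by their fit, 40 passed as lower (background 22.0%) and 3 as higher (background 25.3%). The weights, estimated from these same data, were 0.091 for NC replicate 3, 0.34 for mimic replicate 3 and 1.72 to 3.44 for the rest. That fit thus rests little on replicate 3, much as the fit without it.

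Transcript length and GC content moved with the fold change over the whole table, and the members are short. Each gene was given its longest protein-coding transcript, or its longest one where none codes for protein. The median length was 1339 bases in members, against 2921 in the 10128 tested genes with a transcript length. Median GC content was 49.9%, against 49.5%. Across members Spearman's rho between log2 fold change and length was 0.32, and 0.42 across those 10128 genes. With GC content it was −0.42 and −0.57. These are descriptions across genes of the same 6 libraries, and genes are not independent replicates. The 23 members under 1000 bases had a median fold change of −0.35 (19 below 0), against −0.14 for the 884 tested genes of that length (552 below 0). From 1000 to under 2000 bases 29 members had −0.12 (25 below 0), against −0.11 for 2130 genes (1410 below 0). The 25 members of 2000 bases or more had −0.096 (16 below 0), against 0.090 for 7114 genes (2458 below 0). In the shortest and longest bins the members' median was the lower one, and in the middle bin the medians were close while a larger share of members was below 0.

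With the trend on length and GC removed from each library, the medians were −0.097 for Mrpl genes and −0.082 for Mrps genes, with 51 of 77 members below 0 (44.1% of all genes) and 0 called. With that trend and NC replicate 3 both removed, 9 members passed as lower (background 1.58%) and 0 as higher (background 0.573%). They were Mrpl11, Mrpl17, Mrpl34, Mrpl39, Mrpl48 and Mrpl51 of the large subunit and Mrps5, Mrps26 and Mrps33 of the small one. Of these genes, Mrpl34 (607 bases) and Mrps33 (1107 bases) were given lengths under the member median of 1339. The others were given lengths from 2294 bases (Mrpl39) to 7300 bases (Mrpl17). In this fit Mrps26 fell by 1.14 (adjusted p = 0.011, limma), Mrpl51 by 0.99 (adjusted p = 0.040) and Mrps33 by 0.95 (adjusted p = 0.024). Mrps24 and Mrps6 turned to 0.055 and 0.075 there, with neither called. Mrpl17 stood at −0.27 (adjusted p = 0.082, limma) without NC replicate 3 alone and at −0.66 (adjusted p = 0.031) with the trend removed too. Mrpl34 went the other way, from −1.27 to −0.89. With only the trend removed, rho between fold change and length was −0.13 across members and 0.038 across all genes. Whether the given lengths are those expressed in these cells was not tested.

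**Figure D5:**
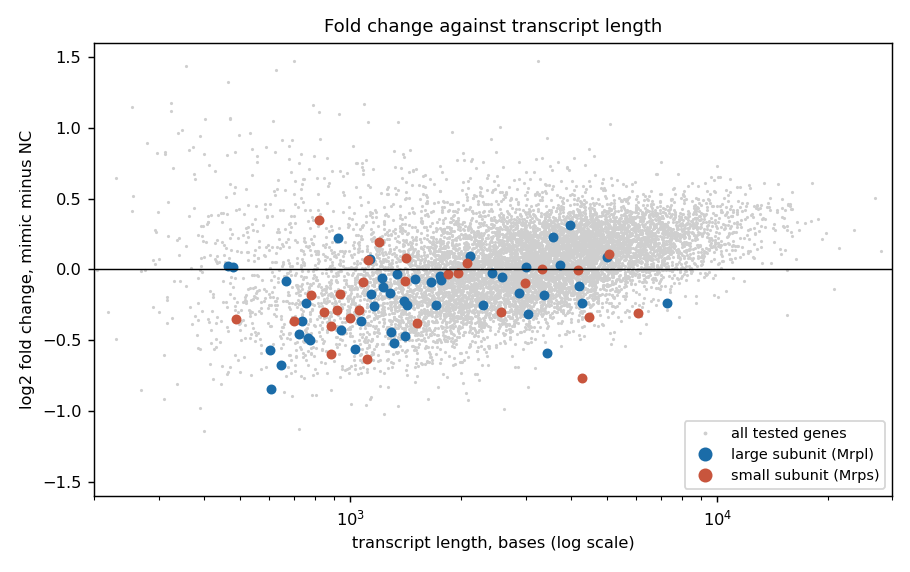
The limma log2 fold change (mimic minus NC, y axis) against transcript length in bases (log x axis). Grey points are the tested genes with a transcript length, blue points Mrpl genes and red points Mrps genes. Length is that of the longest protein-coding transcript, or of the longest one where none codes for protein. Outside the axes lie 18 genes. The cloud of all genes rises with length, and most members lie in its shorter and lower part.

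The mature miR-125b-5p, shown for its seed (bases 2 to 8, in capitals), comes from RefSeq on GRCm38.p6, at chr9:41581940-41581961 and chr16:77646279-77646300, both on the plus strand.
mmu-miR-125b-5p: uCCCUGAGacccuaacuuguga
A match to the seed in a 3′ untranslated region is CTCAGGGA (8mer), CTCAGGG (7mer-m8) or TCAGGGA (7mer-A1). In the longest annotated 3′ untranslated region, 10 of 77 members (12.99%) held one, against 22.2% of 9312 tested genes with such a region. The members' regions had a median of 390 bases, against 1011 for all genes. The 8mers were in Mrps10 (GRCm38 chr17:47378288-47378295, plus strand) and Mrps25 (chr6:92174003-92174010, minus strand). Each is given in its context, beside 7mers of Mrps26 (chr2:130565244-130565250, plus strand) and Mrpl3 (chr9:105077784-105077790, plus strand), which had the lowest fold change of Mrps genes and the highest of Mrpl genes. Capitals mark the match.
Mrps10 8mer: gcCTCAGGGAtggcggatccg
Mrps25 8mer: ggtgcaggggtCTCAGGGAggcagtgcaac
Mrps26 7mer-m8: ccacagacaaaCTCAGGGcagcattaaac
Mrpl3 7mer-A1: ttctcttgaaaTCAGGGAtcatattgtaa

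Mrps10, a protein of the small subunit head, read 8.07, 8.82 and 6.98 FPKM in the mimic libraries and 7.93, 8.18 and 6.51 FPKM in the NC libraries (log2 fold change 0.070, SE 0.14). Without NC replicate 3 it stood at −0.020. Mrps25, a mitochondria-specific subunit, read 1.47, 2.02 and 1.88 FPKM with the mimic and 2.21, 3.34 and 1.93 FPKM with NC (−0.31, SE 0.19). Its exons share 4590 bases with Nr2c2 on the other strand, so its level is uncertain. Neither gene with an 8mer passed (adjusted p = 0.846 and adjusted p = 0.502, limma). For the 10 members with any match the median fold change was −0.15, 6 below 0 and 4 above, and for the 67 without one −0.18, 54 below and 13 above. Over all tested genes with such a region, the median was 0.071 with a match (794 below 0, 1270 above). Without a match it was 0.021 (3368 below, 3880 above). A match is a description of letters and does not show that a site is used.

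Promoters (250 bases before to 50 after the start, RefSeq on GRCm38.p6) were found for 68 of the 77 members and searched on both strands. The ETS motif CCGGAAG was present in 25 (36.8%), against 22.9% of 7761 tested genes with a promoter. The YY1 motif AANATGGC was in 21 (30.9%), against 11.3%. The NRF1 core CGCATGCG was in 7 (10.3%), against 4.86%, and the GC box GGGCGG in 34 (50%), against 71.0%. NRF1, ETS factors and YY1 are known regulators of nuclear genes for mitochondrial proteins. The median log2 fold change was −0.22 over members with an ETS motif and −0.17 over those without. For YY1 the medians were −0.072 with and −0.24 without, for the NRF1 core −0.24 and −0.18, and for the GC box −0.20 and −0.18. A missing match says only that these letters are not in this window.

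The sequences of 3 promoters of genes that passed as lower in the fit with the trend and NC replicate 3 removed are shown with that of Mrpl3, the highest Mrpl gene, so that their motifs can be compared. Each runs along the strand of its gene: chr6:125191950-125192249 (plus) for Mrpl51, chr7:105811038-105811337 (minus) for Mrpl17, chr2:130563507-130563806 (plus) for Mrps26 and chr9:105053018-105053317 (plus) for Mrpl3. Capitals mark the ETS, YY1, NRF1 core and GC box letters on either strand.
Mrpl51: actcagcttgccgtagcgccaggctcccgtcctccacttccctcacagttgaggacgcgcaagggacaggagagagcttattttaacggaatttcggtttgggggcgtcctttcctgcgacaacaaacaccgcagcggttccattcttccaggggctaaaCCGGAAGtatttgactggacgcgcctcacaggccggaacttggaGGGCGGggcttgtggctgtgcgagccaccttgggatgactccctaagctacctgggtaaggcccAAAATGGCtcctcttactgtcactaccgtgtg
Mrpl17: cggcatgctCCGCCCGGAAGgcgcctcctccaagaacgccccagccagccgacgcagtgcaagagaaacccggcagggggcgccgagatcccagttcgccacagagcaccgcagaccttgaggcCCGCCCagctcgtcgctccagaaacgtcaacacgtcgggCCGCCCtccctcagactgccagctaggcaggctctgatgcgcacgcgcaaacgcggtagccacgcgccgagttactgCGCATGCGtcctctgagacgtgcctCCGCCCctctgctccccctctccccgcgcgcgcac
Mrps26: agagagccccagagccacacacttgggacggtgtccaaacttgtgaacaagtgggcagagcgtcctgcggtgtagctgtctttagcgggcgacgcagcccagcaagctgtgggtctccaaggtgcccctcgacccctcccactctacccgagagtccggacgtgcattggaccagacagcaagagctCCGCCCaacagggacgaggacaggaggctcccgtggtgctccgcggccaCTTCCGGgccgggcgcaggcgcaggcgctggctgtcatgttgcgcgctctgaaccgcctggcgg
Mrpl3: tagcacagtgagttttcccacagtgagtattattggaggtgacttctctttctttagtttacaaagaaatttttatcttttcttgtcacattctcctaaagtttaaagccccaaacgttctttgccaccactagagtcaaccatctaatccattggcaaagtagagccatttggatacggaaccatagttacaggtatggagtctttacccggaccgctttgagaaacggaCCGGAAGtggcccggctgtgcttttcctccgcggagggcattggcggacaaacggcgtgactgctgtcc
Mrpl51 holds an ETS motif, a GC box and a YY1 motif, and Mrps26 a GC box and an ETS motif. Mrpl17 holds 4 GC boxes, the first overlapping its ETS motif, and the NRF1 core, and Mrpl3 holds an ETS motif alone. Of the other genes that passed there, Mrpl11, Mrpl39 and Mrps5 hold no ETS motif in this window, and Mrpl34 and Mrps33 hold it. Mrpl48 has several annotated starts, and only the window at chr7:100583081-100583380 holds an ETS motif.

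Other genes of the mitochondrial ribosome pathway were taken from lists, none of which had a gene passing with all 6 libraries weighted equally. At an unadjusted p under 0.05, 2 assembly genes and 1 transcription gene were higher (7.96% of all tested genes) and 1 subunit lower (5.26%). With library weights all 8 list genes named here passed, with adjusted p between 0.0020 (Tfb2m) and 0.045 (Aurkaip1) by limma. In that fit 22.0% of all tested genes passed as lower and 25.3% as higher. The 8 genes were picked for small p in these same data, so their count says nothing about the lists. Of 5 mitoribosome subunits under other symbols, 4 were below 0 and 1 above, with a median log2 fold change of −0.19, and −0.31 without NC replicate 3. Aurkaip1, a small subunit protein, read 15.8, 14.6 and 13.1 FPKM in the mimic libraries and 19.5, 16.9 and 17.6 FPKM in the NC libraries (−0.29, SE 0.12). Dap3, the GTP-binding protein of the small subunit, read 15.045, 14.6 and 15.4 FPKM with the mimic and 17.8, 18.2 and 15.6 FPKM with NC (−0.18, SE 0.11). Neither gene overlapped between the groups. Of 12 tested mitochondrial translation factors 6 were above 0 and 6 below, with a median of 0.034 that turned to −0.19 without NC replicate 3. Tsfm, the elongation factor that recharges Tufm, read 4.96, 4.60 and 3.98 FPKM with the mimic and 7.60, 5.73 and 5.03 FPKM with NC (−0.36, SE 0.17). Lrpprc, which stabilises mitochondrial mRNAs, had a fold change of 0.17 (SE 0.14).

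Of 22 tested genes for mitoribosome assembly and rRNA modification, 10 were above 0 and 12 below, with a median of −0.0052, and −0.12 without NC replicate 3. Mterf3, an assembly factor of the large subunit, read 9.38, 11.6 and 11.3 FPKM in the mimic libraries and 7.20, 7.15 and 9.47 FPKM in the NC libraries (0.40, SE 0.15). Fastkd2, which binds the large rRNA, read 2.60, 2.47 and 1.90 FPKM with the mimic and 1.68, 1.61 and 1.32 FPKM with NC (0.39, SE 0.15). Fastkd2 did not overlap between the groups, and Mterf3 did by a small margin. Of 7 genes for mitochondrial transcription 6 were above 0, with a median of 0.18, and 0.11 without NC replicate 3. Tfb2m, the initiation factor of the mitochondrial RNA polymerase, read 16.5, 14.9 and 16.1 FPKM with the mimic and 11.4, 12.1 and 14.3 FPKM with NC (0.31, SE 0.12), without overlap. Mterf1a, a transcription termination factor, had a fold change of 0.46 (SE 0.27). A difference between lists was not tested, and the mitochondrial rRNAs were not analysed here.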

How the data were processed

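The study sequenced mRNA from 6 transfected RAW264.7 samples (SMARTer kit, per the labels), 3 per group; group and replicate were read from the titles. The deposited table gives an FPKM value per Ensembl gene and library; per the submitters' processing notes, the authors used fastp, HISAT2, DESeq2 and mm10. Not given in the sources used here are versions, annotation, counting and strand settings. Of 16665 identifiers 16582 were found in GENCODE M21 (GRCm38).

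FPKM values are not counts. Depth per library was recovered from the steps of low FPKM values: 98.5% to 99.0% of values up to 20 fragments were whole within 0.1 fragment. Genes averaging at least 1 FPKM were tested with limma 3.58.1 (R 4.3.3) on log2(FPKM + 1), which understates changes of low genes. The fit used a mean-variance trend and a two-sided test, with p adjusted by Benjamini and Hochberg over all 10166 genes and a limit of 0.05. SE is that of the moderated fit.

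Same-numbered libraries deviated together (correlations 0.29, 0.18 and 0.34 for replicates 1, 2 and 3), so the numbers were taken to pair them, a hint from the data; mimic 1 correlated as well with NC 2 (0.31) and mimic 2 with NC 1 (0.087). Alternatives covered pseudocount, filter, scaling, library weights, the replicate block, each library left out, a length and GC trend (splines with 5 degrees of freedom on log2 transcript length and GC), and voom on recovered fragments. Named genes were the 6 with the smallest p, 2 highest fold changes and 2 highest levels per subunit, genes of special role, 2 per related list, and those with an 8mer. The members, lists and rules were chosen with earlier results of these data known. For NRF1 an 8-letter core was searched in place of a longer planned motif. Exons of 21 Mrpl and 11 Mrps genes overlap another gene, and their reads may be shared. Recovered fragments per member and library had a median of 373 and a minimum of 19.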

Additional observations from a re-analysis of the deposited data

How the results depend on the processing

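With all 6 libraries weighted equally 0 genes and 0 members passed. The medians stayed below 0 under every alternative run, from −0.30 to −0.081 for Mrpl genes and from −0.28 to −0.082 for Mrps genes. The number of genes called over the table was 4808 with library weights, 218 without the length and GC trend and NC replicate 3, 4377 without replicate 3 of both groups, and 0 to 2412 with 1 library left out. The number of members called was 43, 9, 38 and 0 to 26 in the same order. With 1 library left out, calls appeared only without NC replicate 3. The replicate block, which pairs same-numbered libraries, called 0 genes and changed no other call. Named genes kept their direction in all but 27 of 576 alternatives, over 12 genes. With the trend removed, Mrpl18 stood at 0.065, Mrpl45 at 0.017, Mrps18b at 0.095, Mrps34 at 0.034 and Mrps30 at −0.12. With NC replicate 3 also left out, Aurkaip1 stood at 0.049, Fastkd2 at −0.015, Mrpl18 at 0.086, Mrpl45 at 0.0068, Mrps18b at 0.22, Mrps22 at −0.022, Mrps24 at 0.055, Mrps30 at −0.015 and Mrps6 at 0.075. Quantile normalisation gave 0.011 for Mrpl45 and −0.021 for Mrps30, and median ratio scaling −0.034 for Mrps30. Without replicate 3 of both groups Mrpl18 stood at 0.021. With 1 library left out the range was −0.14 to 0.033 for Mrpl18, −0.078 to 0.011 for Mrpl45, −0.28 to 0.13 for Mrpl58, −0.020 to 0.15 for Mrps10, −0.010 to 0.36 for Mrps22 and −0.13 to 0.19 for Mrps30. The cause of these reversals was not tested. With 3 libraries per group, differences smaller than the interval half-widths are not detectable.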
